A study of Rattus norvegicus with 4 samples.

Results

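Tetraspanins are small membrane proteins that cross the membrane repeatedly and organise integrins, proteases and receptors into patches of the cell surface. The family was taken from the count table by name, as the protein-coding genes called Tspan followed by a number together with Cd9, Cd37, Cd53, Cd63, Cd81, Cd82, Cd151, Upk1b and Tm4sf1. This gave 29 of 32545 genes, of which 22293 were protein-coding. All members but Tm4sf1, 28 genes, carried the tetraspanin domain label in the deposited annotation. Tm4sf1 belongs to the L6 family, which shares the membrane topology of tetraspanins but not their sequence signature. The family was chosen because Tspan18 fell and Tm4sf1 rose in these libraries, so the changes of those genes are given as a description with no test. The other members came in by name, but on the same comparison, and their calls are likewise no independent evidence about the family.

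The RNA was that of the rat Schwann cell line S16, in 2 groups of 2 libraries. Control cells were transfected with the non-targeting IDT DS NC1 siRNA. The other cells received siRNAs against Nr2f1 and Nr2f2, with a single product named for each target, which encode the nuclear receptors COUP-TFI and COUP-TFII. The time from transfection to lysis is not given in the labels. The libraries of a group are named A and B as their columns stand in the deposited table, and paired values are always given with A first.

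The control libraries held 26561522 and 21556011 gene counts, and the siRNA libraries 25618234 and 43057750. Levels are given as CPM, counts divided by library size and scaled by TMM, a factor that balances library composition, with mean ± SD over n = 2 libraries. Each adjusted p is from the quasi-likelihood test of edgeR, Benjamini-Hochberg corrected over 13018 tested genes, and 0.05 was the threshold. The libraries are not said to come from separate cultures, so p-values reflect only how far these libraries lie apart, a spread that may be technical. Nr2f1 was at 226 and 208 CPM in control and 61.5 and 56.0 CPM in siRNA libraries. Nr2f2 was at 296 and 282 CPM against 68.1 and 72.7 CPM, so both targets matched the labels in every library. Of 9 Schwann cell markers 8 had counts, among them Sox10 at 686 to 760.0 CPM, while Gap43 had 0 counts in every library. Of the endothelial markers Cdh5, Kdr and Cldn5 had 0 counts in every library, and the list summed to 5.76 and 6.71 CPM in control and 4.71 and 5.25 CPM in siRNA libraries. The epithelial list summed to 11.9 and 11.4 CPM against 13.3 and 13.3 CPM, and within it Cdh1, the E-cadherin gene, rose from 0.762 ± 0.0161 to 2.08 ± 0.125 CPM (log2 change of 1.46 with SE 0.36, adjusted p = 0.0140). The macrophage list summed to 1.55 to 1.83 CPM and the lymphocyte list to 0 to 0.188 CPM over the libraries, with Ptprc, Cd163 and Ms4a1 at 0 counts. Of the fibroblast list Dcn and Lum were at 0 counts, and Col1a1 (11540.0 to 12015 CPM) overlapped between groups. Col3a1 was at 1484 and 1547 against 1754 and 1723 CPM (adjusted p = 0.0611) and Pdgfra at 1.39 and 2.11 against 3.22 and 3.15 CPM (adjusted p = 0.0505), without overlap. Neither passed in edgeR's test, and DESeq2 called 1 gene of the list. The part of these markers in the results below was not tested. In bulk RNA, fewer cells of a type and less RNA per cell cannot be told apart.

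Tetraspanins rarely act as receptors of their own. They bind partner proteins directly, such as the laminin-binding integrins for CD151 and the protease ADAM10 for the TspanC8 group, and escort or cluster them. CD9, CD81 and CD63 are also the usual markers of extracellular vesicles, CD63 being chiefly a protein of late endosomes. In Schwann cells CD9, CD81 and CD82 are known as surface proteins of myelinating and cultured cells.

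The family in these cells was dominated by Cd63. Levels per gene length were taken from the authors' FPKM values, a read count scaled for gene length and library size. Cd63 was at 1429.6 and 1603 FPKM in control and 1419 and 1423 FPKM in siRNA libraries. It held 46.1% and 48.1% of the FPKM summed over the family in the control libraries and 43.2% and 43.7% in the siRNA libraries. Cd81 followed at 528 ± 10.8 FPKM in control, then Cd9 at 448 ± 8.35 FPKM. Together with Cd63 these vesicle markers held 77.5% of the family's summed FPKM in both control libraries, and 77.9% and 78.8% in the siRNA libraries.

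Below them came Cd82, a gene known as a metastasis suppressor, at 133 ± 13.0 FPKM and Tspan3 at 119.5 ± 4.02 FPKM in control. Tspan7 at 98.4 ± 5.07 FPKM and Tspan17 at 92.9 ± 5.70 FPKM followed. Tspan31 (70.6 ± 3.96 FPKM), Tspan14 (67.1 ± 4.63 FPKM) and Tspan11 (55.3 ± 3.80 FPKM) closed the group above 50 FPKM. Next were Tspan6 (25.5 ± 2.62 FPKM), Tspan15 (19.6 ± 3.63 FPKM), Tspan5 (18.2 ± 0.54 FPKM), Tspan13 (11.7 ± 0.611 FPKM) and Tspan18 (8.66 ± 2.82 FPKM). Tspan4, Cd151 and Tm4sf1 were the weakest of the tested members. Among these neighbours in the control order, the ranges of Tspan7 and Tspan17, of Tspan31 and Tspan14, of Tspan15 and Tspan5 and of Cd151 and Tm4sf1 overlapped. In the siRNA libraries Cd9 stood above Cd81 (574 ± 11.2 against 565 ± 9.56 FPKM), with ranges that overlapped, and Tspan7 had moved from sixth to ninth place.

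**Figure D1:**
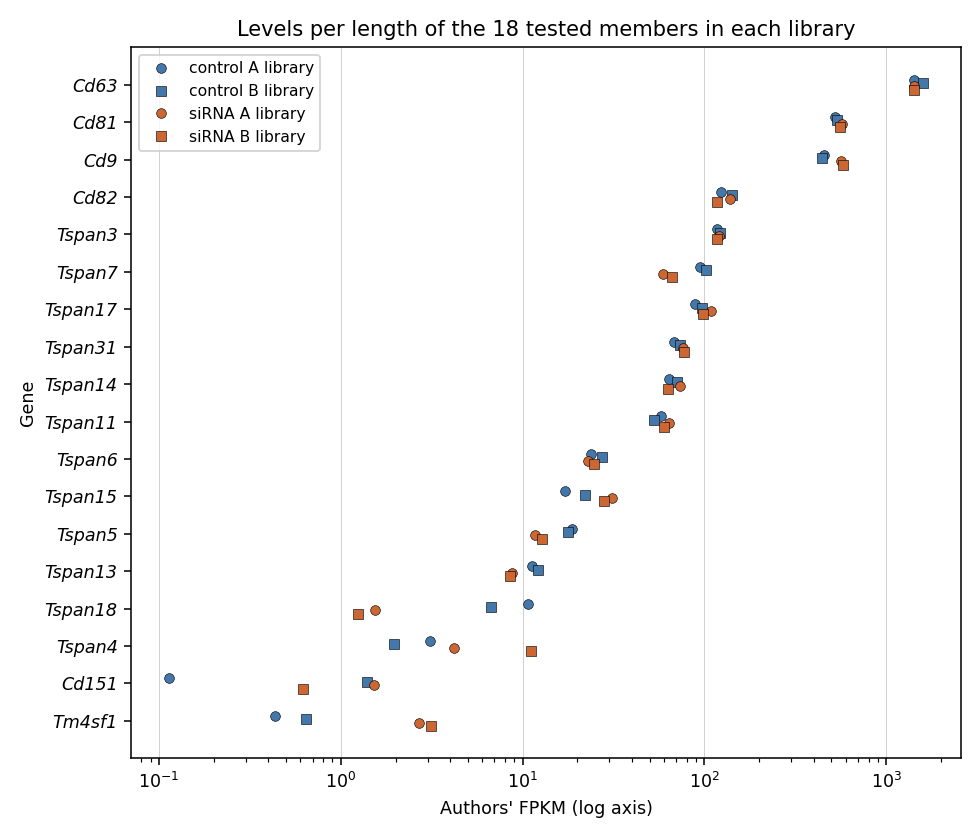
Authors' FPKM (log axis) of the 18 tested members in each library, in the order of the control mean; circles are libraries A, squares libraries B, blue control and orange siRNA. Cd63, Cd81 and Cd9 sit furthest to the right, the points of Tspan18 and Tm4sf1 split by colour, and those of Cd151 and Tspan4 are spread within a colour.

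Tspan18 had the largest difference of the family. It lies on chromosome 3 from 82097068 to 82236664 on the minus strand (ENSRNOG00000008758), in the coordinates of the deposited files, with a genome build not given in the sources used here. Tspan18 binds the calcium channel Orai1 in human endothelial cells. It was at 39.9 and 25.1 CPM in control and 5.79 and 4.66 CPM in siRNA libraries. The groups did not overlap, although the control libraries differed from each other by 1.59-fold, a gap that 8.0% of tested genes equalled or passed. The log2 fold change was -2.67 (SE 0.29), which left 16.1% of the control mean, and it placed Tspan18 in rank 17 among the falls of all tested genes. The summed counts were 1568 in control and 355 in siRNA libraries. When a library was left out the log2 fold change lay between -2.97, without control library B, and -2.29, without control library A.

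Tm4sf1 had the opposite difference from a low level. It encodes a surface protein known from endothelial and tumour cells, where it gathers in thin membrane projections. The gene (ENSRNOG00000015812) lies on chromosome 2 from 147382866 to 147392062 on the minus strand. It was at 0.850 and 1.27 CPM in control, with 22 and 27 counts, against 5.33 and 6.19 CPM after knockdown, with 139 and 271 counts. Both siRNA libraries were above both control libraries, and the log2 fold change was 2.48 (SE 0.29), in rank 46 among the rises. Even after this rise Tm4sf1 was at 2.92 ± 0.308 FPKM, below 15 of the other members. The log2 fold change lay between 2.20, without control library A, and 2.76, without control library B.

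The promoters of these genes are shown because COUP-TF receptors recognise repeats of the half-site AGGTCA. They are taken from RefSeq on build GRCr8, from 250 bases before to 50 after the annotated start, 5′ to 3′, with AGGTCA or its reverse complement in capitals. The Tspan18 window is chr3:99755221-99755520 and the Tm4sf1 window chr2:143616127-143616426, both on the minus strand.
Tspan18: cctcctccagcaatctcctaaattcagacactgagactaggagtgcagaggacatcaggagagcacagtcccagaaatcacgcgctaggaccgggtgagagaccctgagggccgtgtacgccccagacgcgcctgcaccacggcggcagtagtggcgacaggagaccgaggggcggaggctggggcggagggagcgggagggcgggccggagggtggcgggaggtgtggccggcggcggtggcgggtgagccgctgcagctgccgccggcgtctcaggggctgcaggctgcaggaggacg
Tm4sf1: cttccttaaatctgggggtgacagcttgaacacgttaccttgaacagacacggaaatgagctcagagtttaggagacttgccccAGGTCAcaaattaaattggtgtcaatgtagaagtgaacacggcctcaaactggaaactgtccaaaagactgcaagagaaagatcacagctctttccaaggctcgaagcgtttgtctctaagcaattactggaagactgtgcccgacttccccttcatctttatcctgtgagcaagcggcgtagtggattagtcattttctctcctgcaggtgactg

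The Tspan18 window was GC-rich (69.7% G or C) and held no copy of these letters, and the Tm4sf1 window (46.7% G or C) held 1. The median GC share of all 33469 promoters in the reference table was 51.7%. Promoters could be matched for 26 of the 29 members. AGGTCA, searched on both strands, was in 4 of them (15.4%), those of Tm4sf1, Tspan1, Tspan2 and Cd53, and in 16.2% of all promoters. A direct repeat of that half-site, with 1 base of any kind between the copies, was in 0 of the 26 and in 0.0538% of all promoters. These matches describe letters in a short window only.

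Of the 29 members 18 had enough counts to be tested. Apart from Tspan18 and Tm4sf1, 5 of 16 had an adjusted p under 0.05, 2 higher and 3 lower. Among all tested genes 18.1% were called, 8.05% higher and 10.0% lower. Scaled by library size alone, 1381 of 2390 called genes were higher against 1048 of 2350 with TMM. Since the family was chosen on this contrast, nothing is read from its count against that background. The median log2 fold change of the 16 was 0.06, against 0.01 over all tested genes. Their median absolute log2 fold change was 0.17, against 0.20 over all tested genes. The siRNA and control libraries did not overlap for 10 of the 16, and for 58.6% of all tested genes.

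Tspan7 fell to 63.9% of its control level. It encodes a tetraspanin best known from neurons, and its human counterpart is an X-linked intellectual disability gene. It was at 162.9 and 176 CPM in control and 102 and 115 CPM in siRNA libraries. The control libraries lay close together and well above both siRNA libraries (log2 change of -0.64 with SE 0.09, adjusted p = 0.000308). The fall was called in every alternative fit, including each fit with a library left out.

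Tspan5, a TspanC8 member that escorts ADAM10, fell from 53.5 and 51.5 CPM to 33.6 and 36.9 CPM. Its groups were apart by far more than the libraries within them (log2 change of -0.57 with SE 0.09, adjusted p = 0.00136). Tspan13, of which less is known, was at 22.0 and 23.8 CPM in control and at 17.2 and 16.8 CPM in siRNA libraries. Its fall was the smallest of those called (log2 change of -0.43 with SE 0.11, adjusted p = 0.0209). Leaving out control B, siRNA A or siRNA B ended that call (adjusted p = 0.0982, 0.0646 and 0.116), and it held without control A (0.0423).

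Cd9 was the most abundant member called. Its protein associates with integrins and with the immunoglobulin proteins Ptgfrn and Igsf8. It was at 559 and 546 CPM in control and at 700.3 and 720.0 CPM in siRNA libraries. The libraries of each group differed by less than 1.03-fold, and the groups were 1.29-fold apart (log2 change of 0.36 with SE 0.07, adjusted p = 0.00323). Its close relative Cd81 was at 679 and 702 CPM against 749 and 732 CPM, also without overlap, and did not pass the test (log2 change of 0.10 with SE 0.07, adjusted p = 0.343). The difference between the changes of Cd9 and Cd81 was not tested.

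Tspan15, the TspanC8 member that directs ADAM10 to N-cadherin, rose from 15.1 and 19.7 CPM to 27.6 and 24.99 CPM. The groups were apart although the control libraries differed by 1.31-fold (log2 change of 0.60 with SE 0.13, adjusted p = 0.00873). The call was lost without control library A, the lower of the controls, when the log2 fold change was 0.41 (adjusted p = 0.0943).

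**Figure D2:**
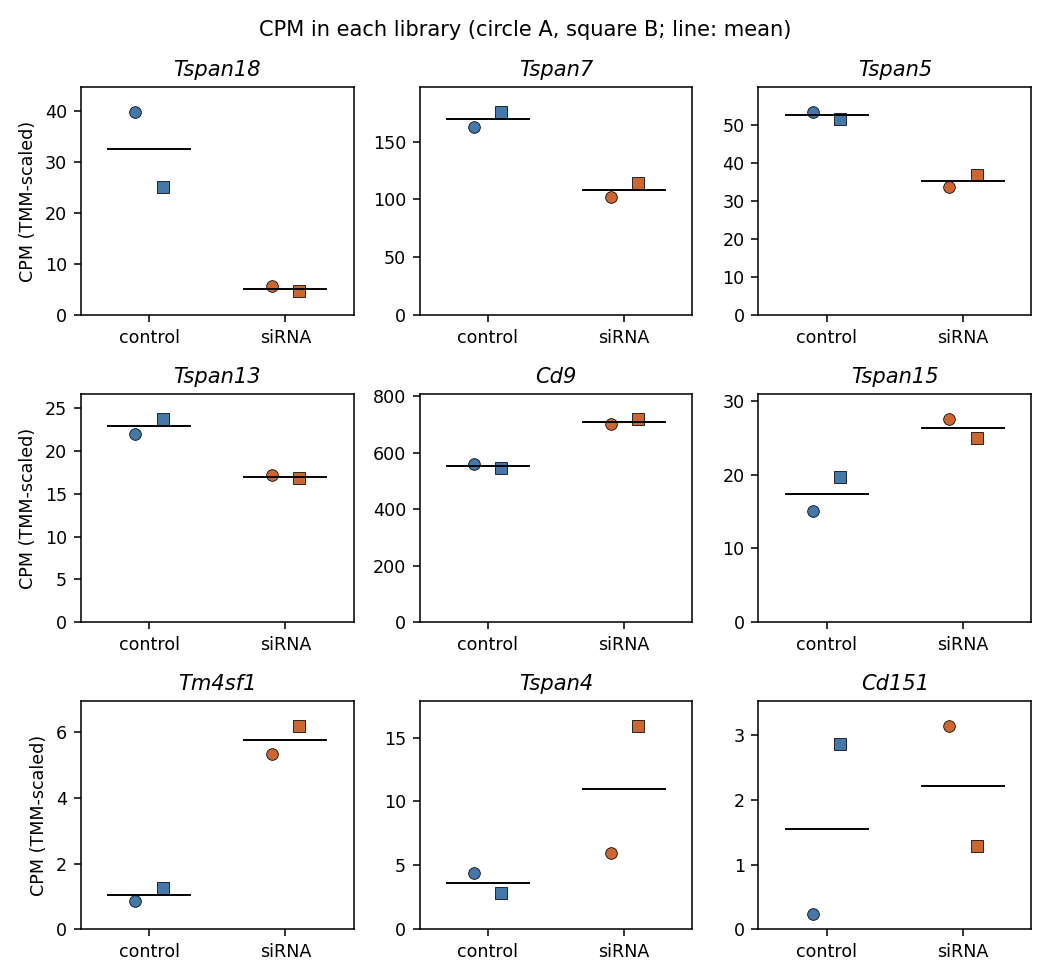
CPM in each library of Tspan18, Tm4sf1, the 5 other members past the threshold, Tspan4 and Cd151; circles are libraries A, squares libraries B, lines the group means, and each panel starts at 0. Tspan18, Tspan7, Tspan5 and Tspan13 lie lower and Cd9, Tspan15 and Tm4sf1 higher in both siRNA libraries, while Cd151 overlaps between groups and the siRNA libraries of Tspan4 lie far apart.

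The TspanC8 group, 6 members that each take ADAM10 from the endoplasmic reticulum to the surface and steer its choice of substrates, had 4 tested members. Of these 1 fell (Tspan5), 1 rose (Tspan15, a call lost without control library A), and Tspan14 and Tspan17 did not pass, beside 18.1% of all tested genes called. Differences between the members' changes were not tested. Tspan17, the most abundant, was at 148 and 161.9 CPM in control and 183 and 165 CPM in siRNA libraries (log2 change of 0.17 with SE 0.08, adjusted p = 0.194). Tspan14 was at 94.8 and 105 CPM against 109 and 94.4 CPM, which overlap (log2 change of 0.02 with SE 0.09, adjusted p = 0.888). Tspan33 had 10 and 5 counts in control and 2 and 9 in siRNA libraries, and Tspan10 had 0 in each. Per length, Tspan5 made up 9.88% and 8.61% of the group's summed FPKM in the control libraries and 5.18% and 6.29% in the siRNA libraries. Tspan15 made up 9.02% and 10.7% in control and 13.8% and 13.8% in siRNA libraries, so it stood near Tspan5 before and above it after knockdown. Tspan17 stayed at 46.7% to 48.7% of the group in all 4 libraries.

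Of the 11 tested members that did not pass, 9 had log2 fold changes between -0.09 and 0.17, with adjusted p-values from 0.170 to 0.966. Cd63 was at 1616 and 1819 CPM in control and 1611 and 1616 CPM in siRNA libraries, which overlap (log2 change of -0.09 with SE 0.07, adjusted p = 0.446). Cd82 was at 226 and 261 CPM against 254 and 215 CPM (log2 change of -0.06 with SE 0.10, adjusted p = 0.745), and here the libraries of each group differed as much as the groups. Tspan3, whose protein was found with claudin-11 in oligodendrocytes, was at 189.9 to 199.9 CPM in all libraries (log2 change of -0.01 with SE 0.07, adjusted p = 0.966). Tspan11 was at 221 and 201 CPM against 246 and 228 CPM (log2 change of 0.17 with SE 0.08, adjusted p = 0.170). Tspan31 was at 133 and 145 CPM against 150.0 and 152 CPM (log2 change of 0.12 with SE 0.08, adjusted p = 0.319). Tspan31 overlaps the cell cycle kinase gene Cdk4 on the other strand by 168 bases, and Cdk4 had 5195 to 10015 counts per library. Where counting ignored strand, reads in the shared bases could not be told apart between these genes. Cdk4 itself did not pass (log2 change of 0.00 with SE 0.08, adjusted p = 0.979). Tspan6, which has been tied to syntenin and vesicle release, was at 38.3 and 44.5 CPM against 37.2 and 40.3 CPM, which overlap.

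**Figure D3:**
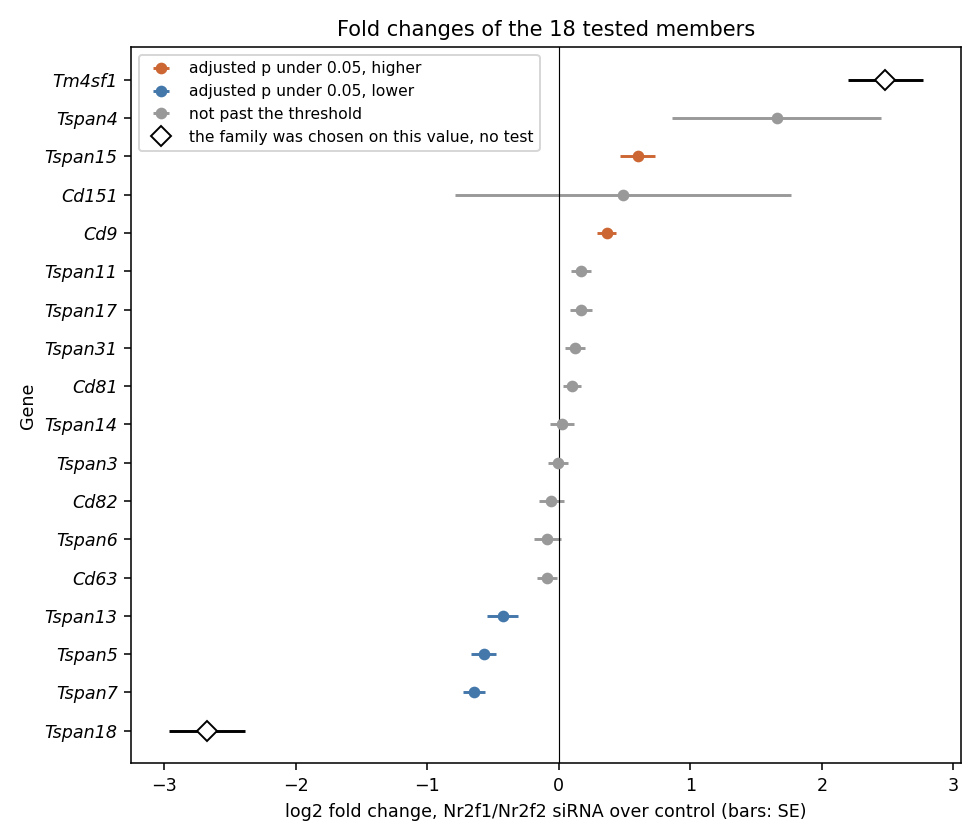
Log2 fold change of each tested member (x axis, siRNA over control), with bars for the SE; orange and blue mark an adjusted p under 0.05, grey the members not past it, and open black diamonds Tspan18 and Tm4sf1, on whose values the family was chosen. The 9 grey members other than Tspan4 and Cd151 sit within -0.09 to 0.17, and Tspan4 and Cd151 have the widest bars.

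Among tested members, Tspan4 and Cd151 had the widest gaps between libraries of one group. Tspan4, a marker of the retraction fibre vesicles called migrasomes, was at 4.41 and 2.81 CPM in control and at 5.98 and 15.9 CPM in siRNA libraries. Both siRNA libraries were above the controls, but they differed from each other by 2.66-fold, a gap that 1.68% of tested genes equalled or passed. Its log2 fold change of 1.66 (SE 0.79) did not pass the test (adjusted p = 0.324). It was 0.70 without siRNA library B (adjusted p = 0.139) and 2.12 without siRNA library A, which was called (adjusted p = 4.68e-07).

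Cd151, whose protein holds laminin-binding integrins in place, was at 0.232 and 2.86 CPM in control and at 3.14 and 1.28 CPM in siRNA libraries. The control libraries differed by 12.3-fold, on 6 and 61 counts, and 0.338% of tested genes had so large a gap (log2 change of 0.49 with SE 1.28, adjusted p = 0.852). Both genes have a near copy in the annotation on chromosome 1. LOC100911730, described as CD151 antigen-like, starts 436875 bases from Cd151 and LOC100911766, described as tetraspanin-4-like, 437193 bases from Tspan4. LOC100911730 had more reads than Cd151 itself, at 7.92 and 18.4 CPM in control and 7.89 and 11.1 CPM in siRNA libraries. Cd151 supplied 2.84% and 13.4% of the sum in the control libraries and 28.5% and 10.3% in the siRNA libraries, so its share of the summed CPM varied by library. The sums were 8.16 and 21.3 CPM in control and 11.0 and 12.4 CPM in siRNA libraries, which overlap. With the copies summed, a fit chosen after the data were seen, the log2 fold change of Cd151 was -0.29 (SE 0.61, adjusted p = 0.819), and its level is uncertain. LOC100911766 had 3 to 6 counts per library, and summing gave Tspan4 a log2 change of 1.62 with SE 0.77 (adjusted p = 0.321).

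The other 11 members had at most 31 counts in any library and were not tested. Cd53, a leukocyte tetraspanin, and Tspan10 had 0 counts in all 4 libraries. Cd37, likewise of leukocytes, had 5 and 0 counts in control and 4 and 14 in siRNA libraries. Tspan2, known from oligodendrocytes and their precursors, had 7 and 6 against 5 and 31 counts, so all but siRNA library B were alike. Tspan12, a co-receptor of Norrin, had 0 and 0 counts in control and 3 and 2 in siRNA libraries, and Tspan8, known from epithelia, had 0 and 0 against 2 and 1. Upk1b, a urothelial gene, had at most 1 count.

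Scaled to library size, 4 of the 11 weak members (Tspan1, Tspan8, Tspan12 and Tspan32) were higher in both siRNA libraries than in either control and 1, Tspan33, was lower, while the groups did not overlap for 58.6% of tested genes. Tspan1, an epithelial tetraspanin, had 0 and 3 counts in control and 15 and 7 in siRNA libraries. Tspan32, of blood cells, had 2 and 2 counts against 10 and 9. Tspan9, known from platelets, had 2 and 7 against 5 and 11 counts.

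The members lie on 14 chromosomes, and 3 pairs lie within 200 kb of each other. Tspan18 and Cd82 are neighbours on chromosome 3, 87.7 kb apart on the same strand, and Cd82 did not pass the test beside the difference in Tspan18. Tspan11 and Tspan9 are 7.82 kb apart on chromosome 4 on opposite strands, with Tspan11 at 52.6 to 64.3 FPKM and Tspan9 at 0.0178 to 0.0753 FPKM. Tspan32 and Cd81 are 31.5 kb apart on chromosome 1 on the same strand, with Cd81 at 520.4 to 572 FPKM and Tspan32 at 0.0771 to 0.381 FPKM. In both of these pairs 1 gene was well expressed and its neighbour near 0. Tspan4 overlaps LOC681193 on the other strand by 950 bases, a gene with 3 to 24 counts per library.

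Partner proteins of tetraspanins were described with 9 lists from general knowledge of the family, holding 65 genes of which 57 were tested. Of these 13 rose, 7 fell and 37 did not pass, with a median log2 fold change of 0.03 against 0.01 over all tested genes. The share called was 35.1%, beside 18.1% of all tested genes. Above 10 CPM in control, 18 of 51 partner genes and 21.9% of all tested genes were called. The lists were chosen with earlier results of these data known, so nothing is read from these shares against the background. Without control library A 13 partner genes passed, and without siRNA library A or B 12 did.

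Laminin-binding integrins, the direct partners of CD151, gave no call in edgeR's test (0 of 5, beside 18.1% of all tested genes). In that test 2 had an unadjusted p under 0.05, and DESeq2 or limma-voom called 0. The median log2 fold change of the list was -0.16. Itga6, which pairs with Itgb1 or Itgb4 in laminin receptors of Schwann cells, was at 1350 and 1262 CPM in control and 1131 and 1205 CPM in siRNA libraries (log2 change of -0.16 with SE 0.07, adjusted p = 0.144). Itgb1, the shared beta chain, was at 1351 and 1242 CPM against 1308 and 1438 CPM, which overlap.

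Of 11 other integrin chains tested, 6 were higher, 2 lower and 3 not past, with a median log2 fold change of 0.30, beside 18.1% of all tested genes called. DESeq2 called 7 of the 11, and so did limma-voom. Itga4, a chain of fibronectin and VCAM1 receptors, rose from 84.8 and 75.4 CPM to 131 and 141 CPM (log2 change of 0.76 with SE 0.09, adjusted p = 0.000103). Itga1, a collagen receptor chain, fell from 91.5 and 93.5 CPM to 56.4 and 63.3 CPM (log2 change of -0.62 with SE 0.09, adjusted p = 0.000466). Itga2, also of collagen receptors, rose from 3.05 and 4.13 CPM to 8.81 and 10.6 CPM (log2 change of 1.47 with SE 0.21, adjusted p = 0.000481). Itgb3, a partner of the alpha V chain, rose from 45.5 and 40.6 CPM to 62.2 and 67.7 CPM (log2 change of 0.59 with SE 0.10, adjusted p = 0.00116). In each of these genes the groups were well apart beside the gap within them.

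The list of ADAM10, the protease that TspanC8 proteins escort, proteins it cuts and the protease gene Adam17 went both ways. Of its 10 genes 3 were higher (Adam10, Adam17 and Notch2), 2 lower (Cdh2 and Nrg1) and 5 not past. Of all tested genes 18.1% were called. Adam17 had the weakest of these calls (log2 change of 0.27 with SE 0.08, adjusted p = 0.0378). The 4 genes of the list called by limma-voom did not include Adam17. Adam10 itself rose from 127 and 119.7 CPM to 147 and 167 CPM (log2 change of 0.35 with SE 0.09, adjusted p = 0.0137). Leaving out control B (adjusted p = 0.0694) or siRNA B (0.182) ended that call. Its substrate Cdh2, the N-cadherin gene, fell from 275 and 253 CPM to 211 and 224 CPM (log2 change of -0.28 with SE 0.08, adjusted p = 0.0246). The call of Cdh2 was lost with library-size scaling (adjusted p = 0.0516) and held in only 1 of the fits with a library left out, that without control library B. Notch2, a receptor that ADAM10 activates, rose from 223 and 205 CPM to 276 and 261 CPM (log2 change of 0.33 with SE 0.08, adjusted p = 0.0107), a call lost without control library B (adjusted p = 0.0721) or siRNA library A (0.0903). Nrg1, the gene of neuregulin-1, fell from 9.43 and 11.6 CPM to 6.59 and 6.58 CPM (log2 change of -0.67 with SE 0.17, adjusted p = 0.0158), a call lost without control library B (adjusted p = 0.110) or siRNA library B (0.0661).

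Of the immunoglobulin partners of CD9 and CD81, Ptgfrn rose from 81.8 and 94.9 CPM to 107 and 108 CPM (log2 change of 0.29 with SE 0.09, adjusted p = 0.0385). Its call held without control library B and was lost without any other library (adjusted p = 0.108 to 0.289) and with limma-voom (0.0503). Igsf8 and Igsf3 did not pass, and Cd101 was not tested. The palmitoyl transferase gene Zdhhc2, whose enzyme adds the lipid anchors of CD9 and CD151, fell from 159 and 158 CPM to 72.0 and 89.6 CPM. It was the 1 of 6 such transferases called (log2 change of -0.97 with SE 0.10, adjusted p = 6.78e-05), beside 18.1% of all tested genes. The call of Zdhhc2 held in every alternative fit.

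Store-operated calcium entry genes, a list with Orai1, the channel that Tspan18 binds, gave no call in edgeR's test (0 of 5). Of all tested genes 18.1% were called. In that test 4 of the 5 had an unadjusted p under 0.05, and DESeq2 or limma-voom called 0. The median log2 fold change of the list was 0.22. Orai1 was at 10.05 and 11.3 CPM in control and 9.01 and 10.9 CPM in siRNA libraries, which overlap (log2 change of -0.08 with SE 0.16, adjusted p = 0.786). The largest changes of the list were those of Orai2 (log2 change of 0.41 with SE 0.15, adjusted p = 0.0787) and Orai3 (0.48, SE 0.18, adjusted p = 0.0948). Both were higher in both siRNA libraries than in either control. The calcium sensor gene Stim1 was at 73.6 and 73.2 CPM against 82.4 and 88.9 CPM (log2 change of 0.22 with SE 0.08, adjusted p = 0.0839). It passed with library-size scaling (adjusted p = 0.0348) or upper-quartile scaling (0.0482). Its relative Stim2 was at 59.2 and 57.8 CPM against 52.1 and 50.6 CPM (log2 change of -0.19 with SE 0.09, adjusted p = 0.153). Of the Norrin receptor genes that act with Tspan12, Lrp5, a Wnt co-receptor, rose from 37.3 and 34.7 CPM to 76.9 and 71.1 CPM (log2 change of 1.04 with SE 0.09, adjusted p = 1.74e-05). Fzd4 and Lrp6 did not pass, and the ligand gene Ndp had 0 counts.

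The list of syntenin, the sorting genes that load CD63 vesicles and the syndecans gave 2 higher, 2 lower and 7 not past of 11 tested. Both higher genes (Sdc2 and Sdc3) and Sdc4 among the lower are syndecans, and Stam was the only sorting gene called. The median log2 fold change of the list was -0.07, and 18.1% of all tested genes were called. Syndecans are cell surface proteoglycans that syntenin binds, and Sdc1 did not pass (adjusted p = 0.686). Sdc3, the syndecan of Schwann cells and neurons, rose from 33.9 and 29.1 CPM to 77.4 and 68.4 CPM (log2 change of 1.205 with SE 0.11, adjusted p = 1.51e-05). Sdc2 rose (log2 change of 0.27 with SE 0.07, adjusted p = 0.0232) and Sdc4 fell (-0.27, SE 0.07, adjusted p = 0.0201), both lost when any 1 library was left out (adjusted p = 0.0526 to 0.167). Stam, of the endosomal sorting machinery, fell (log2 change of -0.35 with SE 0.10, adjusted p = 0.0273) and lost its call without control library A (adjusted p = 0.161) or siRNA library A (0.205). The syntenin gene Sdcbp was at 276 and 283 CPM in control and 258 and 259 CPM in siRNA libraries and did not pass (adjusted p = 0.292). Vesicle docking genes gave 0 calls of 3 tested in edgeR's test, DESeq2 or limma-voom, and 0 at an unadjusted p under 0.05, with Rab35 at 57.9 to 63.2 CPM and Rab11a at 70.5 to 82.3 CPM, and Rab27b had 0 counts.

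**Figure D4:**
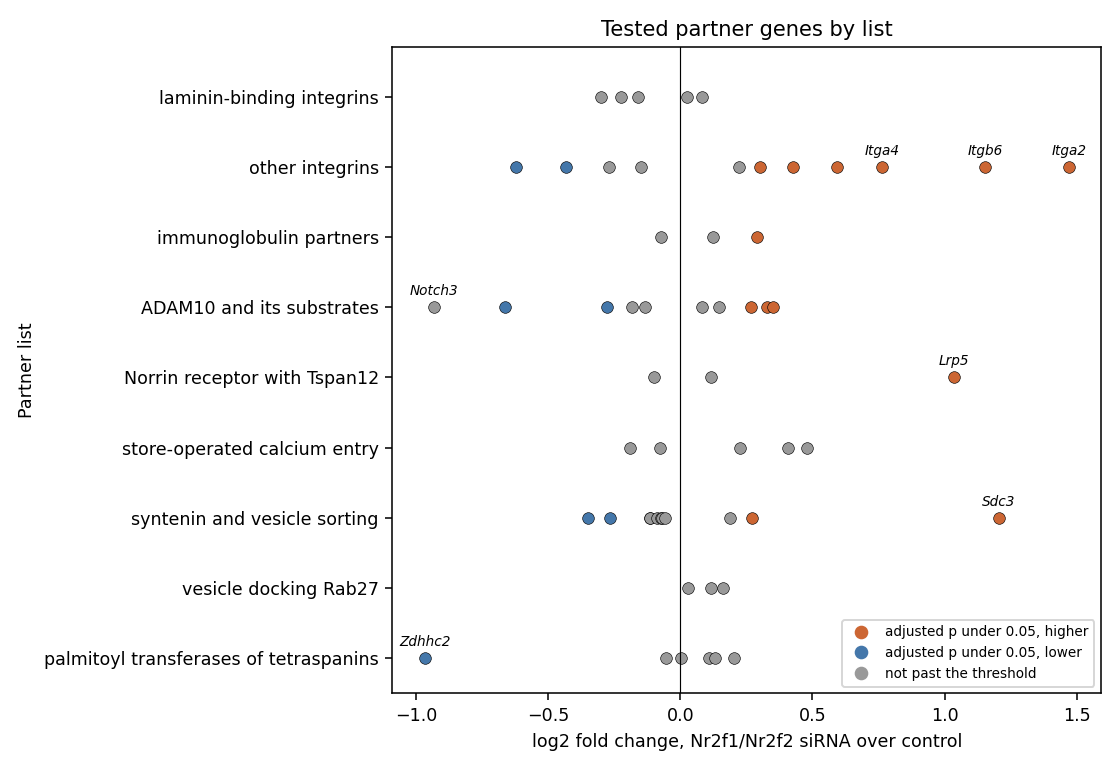
Log2 fold changes (x axis, siRNA over control) of the 57 tested partner genes, 1 row for each of 9 lists; orange and blue mark an adjusted p under 0.05 and grey the rest, and genes past 0.7 in size are named. Zdhhc2 stands alone to the left of its list, and Lrp5 and Sdc3 to the right of theirs, while laminin-binding integrins, calcium entry and docking genes show grey points only.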

How the data were processed

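RNA of 4 libraries of S16 cells was sequenced, and the authors deposited raw counts for each gene and, in a comparison table, FPKM values, log2 fold changes and p-values. HISAT2, featureCounts 1.5.0-p3 and DESeq2 1.20.0 were used per the submitters' processing notes, with no roles given. Genome build, annotation release and strand setting: not given in the sources used here. The authors' FPKM, log2 fold change and adjusted p-value were copied, and 8 other per-library columns and 2 columns of means were not used. Columns name the group but not the titles' replicate numbers.

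Counts were analysed with edgeR 4.0.16 in R 4.3.3: filterByExpr on the groups (13018 genes), TMM (factors 0.975 to 1.02), and a robust quasi-likelihood fit with bias-adjusted deviances (legacy = FALSE) on intercept and group. SEs derive from the F statistic. A count of 3 was worth 0.0685 to 0.141 CPM. DESeq2 1.42.0 and limma 3.58.1 (voom) were alternatives. The fit was first tested on simulated data. There it called 53.7% of genes changed 1.5-fold, 79.1% of those changed 2-fold and 98.5% of those changed 4-fold. Of unchanged genes it called 0.19%. Small changes can thus be missed by this fit. Libraries of a group differed beyond counting noise (chi-square per gene 11.6 and 11.7). Members and lists were chosen with earlier results of these data known. Named were Tspan18, Tm4sf1, every member past the threshold, the 8 most abundant per length, the TspanC8 group, and up to 4 called genes per partner list, or the 2 most abundant where none passed; other genes were named after their values were seen. Chmp4b, Pecam1, Tm4sf18 and Prph2 were listed but not analysed here.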

Additional observations from a re-analysis of the deposited data

How the results depend on the processing

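Of 2350 genes called, leaving out 1 library left 1353 to 1813, and no other alternative moved this count by over 1.5 times (2078 with the DESeq2 Wald test to 2501 with the legacy quasi-likelihood fit, an alternative chosen after seeing the data). Of the 5 members called besides Tspan18 and Tm4sf1, Tspan7, Tspan5 and Cd9 were called in all 14 alternatives run. Tspan15 lost its call without control library A. Tspan13 lost it without any library but control A, and after thinning every library to the smallest total (adjusted p = 0.0537), and Tspan4 gained one without siRNA library A. The 20 partner genes called were 12 to 15 with a library left out and 17 to 21 otherwise. Median log2 fold changes moved by 0.05 with library-size and 0.03 with upper-quartile scaling. Over 39 named genes and 546 values under alternatives, 0 called values changed sign. Tspan18 and Tm4sf1 aside, 26 of 29 lost calls came from leaving out a library; the cause was not tested. No paired analysis was possible because the count columns do not carry the replicate numbers of the titles. The column names carry other numbers, which control A and siRNA A share and the B libraries do not. The meaning of these numbers is not given, and whether the A libraries share a culture or round was not tested. Depth limits the 11 untested members and, with 2 libraries a group, the smaller changes.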

Other observations

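Outside the named family, 5 protein-coding genes carried the tetraspanin domain label. Besides the near copies of Cd151 and Tspan4 these were Rom1, a photoreceptor disc gene, at 3.98 and 3.38 CPM in control and 6.25 and 4.43 CPM in siRNA libraries (log2 fold change 0.48, SE 0.24, adjusted p = 0.189 in edgeR's test), Upk1a with at most 6 counts in a library, and LOC102551255 with 0. Among the L6 relatives of Tm4sf1, Tm4sf4 lies on the same chromosome and was at 0.425 and 0.656 CPM in control and 0.575 and 0.411 CPM in siRNA libraries, which overlap. Tm4sf5 had 0 counts, and Tm4sf19 and Tm4sf20 were too weak to test.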
